A study of Mus musculus with 57 samples.

Results

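The genes of the mitochondrial carrier family, which in the mouse carry symbols starting with *Slc25a* and a number, were described in hearts of mice given doxorubicin (Doxo) with or without nicotinamide mononucleotide (NMN), a precursor of the coenzyme NAD+. Every symbol of this form present in both count tables was taken, which gave 48 of the 25416 genes that the tables share. They were grouped by the cargo that textbooks assign to them: 8 carry adenine nucleotides and phosphate, 5 fuel acids, 8 amino acids, 10 cofactors and nucleotides, 3 iron or precursors of haem, 3 are relatives of the uncoupling proteins, 10 have no settled cargo and 1 is a pseudogene (*Slc25a5-ps*), nearly identical to *Slc25a5*, so that reads of that pair are uncertain. In an acute study, male wild-type C57BL/6J mice bought at 9 weeks of age received vehicle (Ctrl, 14 hearts), a single intraperitoneal dose of 20 mg/kg Doxo (13 hearts) or the same dose with 180 mg/kg NMN a day by injection, begun 5 days earlier (Doxo-NMN, 13 hearts), and hearts were taken on day 5. In a chronic study, male C57BL/6J mice aged 14 to 16 weeks received vehicle (Ctrl, 5 hearts), 5 injections of 4 mg/kg Doxo (6 hearts) or these injections with 500 mg/kg NMN a day in the drinking water (Doxo-NMN, 6 hearts), and hearts were taken on day 60. No group received NMN without Doxo, so the Doxo-NMN hearts show NMN only on top of Doxo.

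Most carriers of this family sit in the inner mitochondrial membrane and exchange one solute for another, because that membrane lets almost no charged molecule through by itself. Among the exceptions are *Slc25a17*, a peroxisomal carrier counted here with the cofactor carriers, and *Slc25a46*, an outer membrane protein of mitochondrial dynamics. In the heart the most used of them are the ADP/ATP carriers, which bring ADP in and send the ATP made by oxidative phosphorylation out, and the phosphate carrier, which supplies the other substrate of ATP synthase. Further members bring in acylcarnitines for fatty acid oxidation, move malate, aspartate and glutamate in the shuttle that passes reducing equivalents from the cytosol, and supply the matrix with cofactors it cannot make, such as coenzyme A, S-adenosylmethionine, glutathione and NAD+.

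The acute libraries held between 32409622 and 52102850 counts and the chronic libraries between 17769886 and 23862287. Most low counts of the acute table were even numbers; with acute counts divided by 2 the totals would be 16204811 to 26051425, so the depths of the 2 studies, and levels at a few counts, are not directly comparable. Carriers took 0.820% ± 0.0438 (SD, n = 14) of all counts in acute Ctrl hearts, 0.881% ± 0.0642 (n = 13) in Doxo hearts and 0.927% ± 0.0838 (n = 13) in Doxo-NMN hearts. The 6 cardiomyocyte marker genes were high in every heart, with a summed level of at least 26682 CPM (counts scaled by library size and TMM). In the acute study that sum averaged 61117 CPM (SD 4800, n = 14) for Ctrl, 48262 CPM (SD 13609, n = 13) for Doxo and 65444 CPM (SD 11760, n = 13) for Doxo-NMN, and its part in the carrier results was not tested. On a scale built from all other tested genes, on which the mean acute Ctrl heart is 0 and the mean Doxo heart is 1, the library labelled Doxo replicate 6 lay at 0.0485, inside the Ctrl range (−0.0544 to 0.0666), and the other 12 Doxo hearts lay between 0.444 and 1.46. Counts of called members in comparisons with acute Doxo hearts are therefore also given without it. So are the Doxo vs. Ctrl changes of *Slc25a26*, *Slc25a42*, *Slc25a25*, *Slc25a28* and *Slc25a16*. Other fold changes, ratios and group means that rest on the acute Doxo group include it. Atrial marker genes varied widely, with 8 of 14 Ctrl, 5 of 13 Doxo and 4 of 13 Doxo-NMN acute hearts above 100 CPM of the atrial myosin light chain *Myl4*. The 7 erythroid markers summed to 439 to 4319 CPM in acute Ctrl hearts, 1.25 to 339 CPM in Doxo hearts and 0.209 to 2.81 CPM in Doxo-NMN hearts. Summed levels of further marker lists also differed between acute Ctrl, Doxo and Doxo-NMN hearts. Skeletal muscle genes averaged 1294, 612 and 1042 CPM, brown fat genes 472, 289 and 355 CPM, and neutrophil genes 2.85, 43.1 and 12.5 CPM. Of 4 listed skeletal muscle and 4 listed brown fat genes, only 2 each passed the filter on low counts. The 2 brown fat genes went opposite ways in Doxo vs. Ctrl, with log2 fold changes of −0.903 and 1.03. Whether these sums reflect those tissues or cells, and their part in the carrier results, was not tested. In bulk tissue, fewer cells of a type and less RNA per cell cannot be told apart.

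Levels of different genes were compared per length, as CPM per kilobase of annotated exon, with no test. *Slc25a4*, which encodes ANT1, the ADP/ATP carrier of heart and skeletal muscle, stood at 1841 ± 223 CPM per kb (SD, n = 14) in acute Ctrl hearts and made up 65.3% of the summed per-length level of all 48 genes. The phosphate carrier *Slc25a3* followed at 266 ± 23.8 CPM per kb, the oxoglutarate/malate carrier *Slc25a11* at 193 ± 18.5, the second ADP/ATP carrier *Slc25a5* (ANT2) at 151 ± 15.1 and *Slc25a34*, whose cargo is not settled, at 77.8 ± 10.3. These 5 genes kept the same order in chronic Ctrl hearts, where *Slc25a4* stood at 2214 ± 159 CPM per kb (n = 5), but there *Slc25a3* (236 ± 24.7) and *Slc25a11* (232 ± 44.2) lay within their spread of each other. At the other end, *Slc25a2*, *Slc25a21*, *Slc25a41*, *Slc25a43*, *Slc25a48* and *Slc25a54* did not pass the filter on low counts in the acute study, and none of them exceeded 0.583 CPM in an acute heart; 3 counts in a library corresponded to 0.0576 to 0.0926 CPM there. This left 42 tested members in the acute study and 41 in the chronic study, where the pseudogene was also too low.

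**Figure D1:**
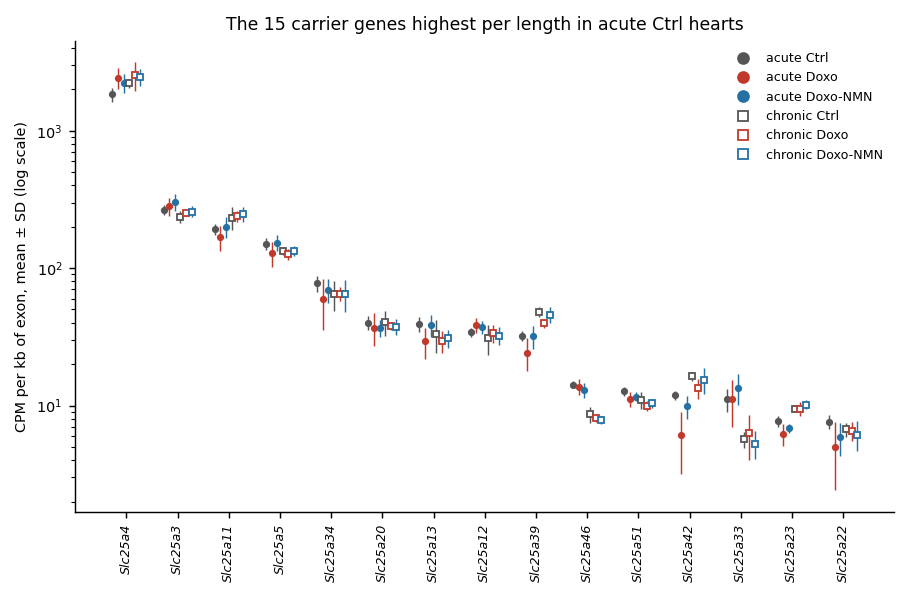
Mean level per length of the 15 carrier genes that were highest in acute Ctrl hearts, in CPM per kb of exon on a log axis, with bars for 1 SD; filled circles are the acute groups and open squares the chronic groups. *Slc25a4* stood apart from the rest in all 6 groups, at 1841 CPM per kb in acute Ctrl and 2214 in chronic Ctrl hearts.

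RefSeq promoters (GRCm38.p6, from 250 bases before to 50 after the start) were at hand for 36 of the 48 members. The GC box GGGCGG, on either strand, was present in 30 of the 36 (83.3%), against 35.9% of all 27025 promoters in the table. The ETS site CCGGAAG was present in 7 (19.4% against 9.12%), the E-box CACGTG in 6 (16.7% against 7.24%), the NRF1 core GCGCNTGCG in 2 (5.56% against 6.59%), the estrogen-related receptor site AAGGTCA in 1 (2.78% against 4.66%) and the ATF4 site TGATGNAA in 0 (0% against 4.06%). These matches are descriptions of letters and not of binding. The promoters of a carrier that fell and of one that rose in acute Doxo hearts are shown, with matches to any of these motifs in capitals; *Slc25a42* lies at chr8:70212232-70212531, minus strand, and *Slc25a28* at chr19:43674832-43675131, minus strand.
Slc25a42: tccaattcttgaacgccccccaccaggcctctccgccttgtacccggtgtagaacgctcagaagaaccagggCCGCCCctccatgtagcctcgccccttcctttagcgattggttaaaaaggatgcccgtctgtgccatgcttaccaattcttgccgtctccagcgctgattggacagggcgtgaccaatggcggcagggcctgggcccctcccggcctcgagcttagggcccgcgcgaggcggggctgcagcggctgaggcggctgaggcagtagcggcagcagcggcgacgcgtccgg
Slc25a28: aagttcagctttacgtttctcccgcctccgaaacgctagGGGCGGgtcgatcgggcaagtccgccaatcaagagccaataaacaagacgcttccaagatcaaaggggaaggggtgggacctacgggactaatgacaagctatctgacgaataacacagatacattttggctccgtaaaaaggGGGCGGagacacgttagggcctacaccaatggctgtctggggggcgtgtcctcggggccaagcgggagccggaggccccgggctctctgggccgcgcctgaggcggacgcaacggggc
Both hold the GC box and none of the other motifs searched, although, as described with their classes, the level of the first was lower and that of the second higher in acute Doxo hearts.

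The comparison of acute Doxo with Ctrl hearts asked which carriers were altered 5 days after a toxic dose. Doxo lowered 17 of the 42 tested members and raised 10 at an adjusted p under 0.05 (edgeR quasi-likelihood test, adjusted over all 14240 tested genes). Over all tested genes 33.3% were lower and 34.8% higher, so the carriers' share was somewhat above the background for lower calls and under it for higher calls, and neither difference was tested. With a fold change of at least 1.5 as well, 8 members were lower and 4 higher, beside 15.4% and 14.7% of all genes. The median log2 fold change of the tested members was −0.09, against −0.00 for all genes. Without Doxo replicate 6, 18 members were lower and 10 higher, and the share over all genes without it is not given here.

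**Figure D2:**
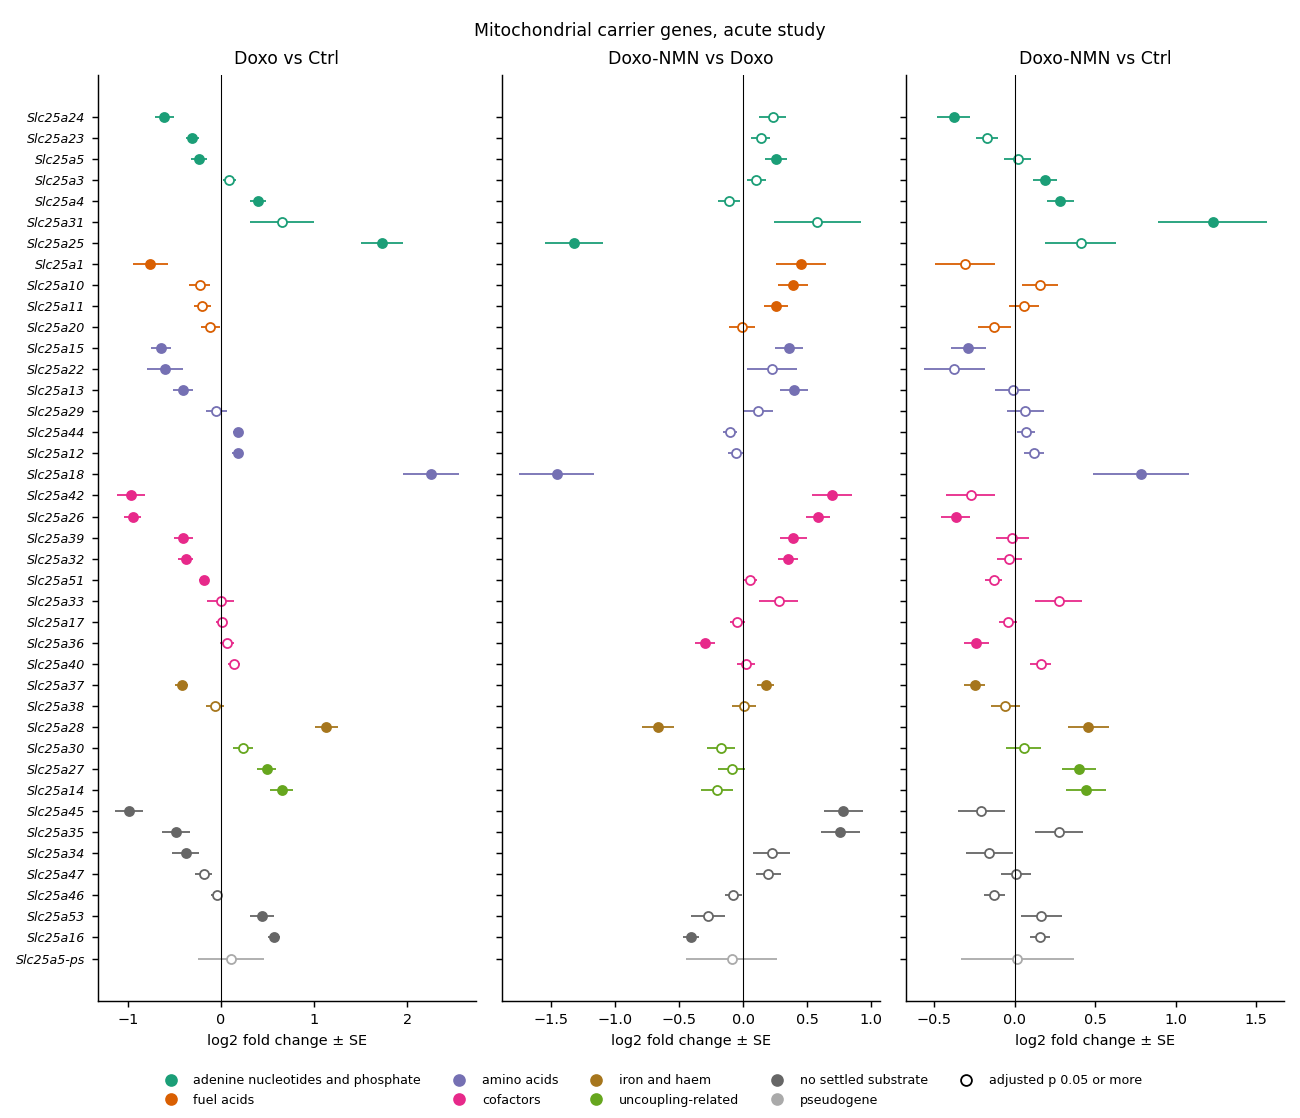
Log2 fold change of 41 of the 42 tested members in the 3 comparisons of the acute study, with bars for 1 SE, grouped and coloured by cargo; filled points have an adjusted p under 0.05. In Doxo vs. Ctrl the cofactor carriers *Slc25a42* and *Slc25a26* lie near −1, while *Slc25a28*, *Slc25a25* and *Slc25a18* lie above 1.

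Cofactor carriers, the largest tested class, also had the most lower calls. Of the 10 members, 6 fell, none rose and 4 did not pass the test, with a median log2 fold change of −0.28. Over all tested genes 33.3% were lower and 34.8% higher, which is the background for the classes after it too. *Slc25a26* imports S-adenosylmethionine, the methyl donor for mitochondrial RNA and protein methylation. It lay between 26.3 and 33.1 CPM in Ctrl hearts (median 29.9), between 11.7 and 26.7 CPM in Doxo hearts (median 14.8) and between 15.5 and 28.2 CPM in Doxo-NMN hearts (median 23). Apart from replicate 6, which was the highest at 26.7 CPM, every Doxo heart was below the lowest Ctrl heart. Its log2 fold change of −0.95 ± 0.09 (SE, adjusted p = 9.19e-11) had the smallest adjusted p among all carriers, and was −1.04 without replicate 6. *Slc25a26* overlaps *Lrig1* on the opposite strand, and *Lrig1* itself was not called (log2 change −0.02, adjusted p = 0.757).

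*Slc25a42*, whose promoter is printed with the motifs, imports coenzyme A, which carries the acyl groups of fatty acid oxidation. Ctrl hearts spanned 64.9 to 80.3 CPM (median 69.6), Doxo hearts 19.3 to 78 CPM (median 34.3) and Doxo-NMN hearts 37.8 to 81.0 CPM (median 62.3). All Doxo hearts except replicate 6 again lay below the Ctrl range. The log2 fold change was −0.97 ± 0.15 (adjusted p = 1.04e-06), and −1.11 without replicate 6.

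The remaining lower cofactor carriers changed less. *Slc25a39*, a carrier of glutathione, went from 88.8 ± 7.44 CPM (SD, n = 14) to 67.0 ± 18.2 CPM (n = 13), with a log2 fold change of −0.41 ± 0.11 (adjusted p = 9.06e-04), whereas its relative *Slc25a40* stood at 10.7 ± 0.865 and 11.8 ± 1.61 CPM and was not called (adjusted p = 0.0694). *Slc25a51*, the NAD+ carrier, fell from 70.1 ± 5.34 to 61.6 ± 7.93 CPM, a log2 fold change of −0.19 ± 0.06 (adjusted p = 0.00334). In the hearts above 100 CPM of *Myl4* alone the *Slc25a51* change was −0.12 (adjusted p = 0.153), and below that limit the *Slc25a39* change was −0.34 (adjusted p = 0.0513). *Slc25a32*, which carries folate and FAD, had a log2 fold change of −0.38 (adjusted p = 4.98e-05). The pyrimidine nucleotide carriers *Slc25a33* (−0.00 ± 0.15, adjusted p = 0.980) and *Slc25a36* (0.06 ± 0.08, adjusted p = 0.476) were not called.

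The carriers of adenine nucleotides and phosphate divided, with 3 lower and 2 higher of 7 tested. *Slc25a4* rose from 3476 to 5187 CPM in Ctrl hearts (median 4314) to 4499 to 7256 CPM in Doxo hearts (median 5378), with a log2 fold change of 0.40 ± 0.08 (adjusted p = 8.94e-05), and the ranges overlapped. *Slc25a5* moved the other way, from 249 ± 24.9 to 211 ± 43.7 CPM (log2 change −0.24 ± 0.08, adjusted p = 0.0118; −0.29 and adjusted p = 0.0615 in hearts below the *Myl4* limit). *Slc25a3* was at 1475 ± 132 CPM in Ctrl and 1569 ± 232 CPM in Doxo hearts and was not called (log2 change 0.09 ± 0.07, adjusted p = 0.281).

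*Slc25a25* encodes a calcium-regulated carrier that exchanges ATP-Mg for phosphate and so sets the size of the matrix adenine nucleotide pool. It lay between 5.33 and 11.7 CPM in Ctrl hearts (median 7.73), between 6.78 and 63.6 CPM in Doxo hearts (median 22.3) and between 7.21 and 15.7 CPM in Doxo-NMN hearts (median 10.1). The Doxo hearts were widely spread, and 11 of the 12 other than replicate 6 exceeded the Ctrl range. The log2 fold change was 1.73 ± 0.22 (adjusted p = 2.38e-08) and 1.82 without replicate 6, while the related *Slc25a24* fell by 0.61 (adjusted p = 2.69e-06) and *Slc25a23* fell by 0.31 (adjusted p = 2.27e-04) on the log2 scale. *Slc25a25* overlaps *Naif1* on the opposite strand, which moved the other way (log2 change −0.29, adjusted p = 0.00364).

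All 4 tested fuel carriers had log2 fold changes below 0, with a median of −0.215. Only the citrate carrier *Slc25a1*, which exports citrate for fatty acid synthesis, passed the test of the 4 tested members (log2 change −0.76 ± 0.19, adjusted p = 5.99e-04). It is named here because it is that 1 gene. It lay between 2.56 and 13.9 CPM in Ctrl hearts (median 6.35) and between 2.73 and 5.69 CPM in Doxo hearts (median 3.96). Every Doxo heart was thus inside the wide Ctrl range. The carnitine/acylcarnitine carrier *Slc25a20*, by which long-chain fatty acids enter the matrix, was at 194 ± 21.6 CPM in Ctrl and 179 ± 47.9 CPM in Doxo hearts (log2 change −0.12 ± 0.10, adjusted p = 0.310). *Slc25a11* was at 409 ± 39.1 and 356 ± 72.9 CPM (−0.20 ± 0.09, adjusted p = 0.0548). In Doxo-NMN vs. Doxo, 3 of the 4 tested fuel carriers were called higher, beside 25.7% of all genes. Their class had a median log2 fold change of 0.323 there.

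Of the 7 tested amino acid carriers, 3 fell and 3 rose. The aspartate/glutamate carriers of the malate-aspartate shuttle went in opposite directions: *Slc25a12* (aralar), the form of heart and muscle, rose from 251 ± 20.1 to 283 ± 37.3 CPM (log2 change 0.18 ± 0.06, adjusted p = 0.0105) and *Slc25a13* (citrin) fell from 149 ± 19.3 to 112 ± 28.6 CPM (−0.41 ± 0.11, adjusted p = 0.00101). The *Slc25a12* call was lost in hearts above (0.19, adjusted p = 0.0633) and below the *Myl4* limit (0.11, adjusted p = 0.214). The glutamate carrier *Slc25a18* had the largest log2 fold change of all members, 2.25 ± 0.30 (adjusted p = 3.87e-08), at a low level of 0.155 to 0.592 CPM in Ctrl hearts (median 0.329) and 0.324 to 3.22 CPM in Doxo hearts (median 1.93). It overlaps *Atp6v1e1* on the opposite strand, a gene of 99.7 CPM in Ctrl and 131 CPM in Doxo hearts that also rose (log2 change 0.39, adjusted p = 3.87e-07). The strand setting of the counting is not given in the sources used here, and whether reads of *Atp6v1e1* took part in the *Slc25a18* value was not tested.

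The mitoferrins, which bring iron to the sites of haem and iron-sulphur cluster assembly, also parted. *Slc25a28* (mitoferrin 2), the form used outside the red cell lineage, lay between 15.7 and 19.7 CPM in Ctrl hearts (median 17.2), between 17 and 54.9 CPM in Doxo hearts (median 37.9) and between 18.1 and 45.5 CPM in Doxo-NMN hearts (median 20.9). All Doxo hearts but replicate 6, at 17 CPM, were above the highest Ctrl heart, and the log2 fold change was 1.13 ± 0.13 (adjusted p = 1.47e-09), and 1.19 without replicate 6. *Slc25a37* (mitoferrin 1), best known from red cell precursors, fell from 23.4 ± 1.79 to 17.4 ± 2.85 CPM (log2 change −0.42 ± 0.07, adjusted p = 8.67e-07). *Slc25a38*, the glycine carrier needed for haem synthesis in the same precursors, was not called (−0.06 ± 0.09, adjusted p = 0.540). Erythroid marker genes fell in the same hearts, all 7 of 7 with a median log2 fold change of −5.67, and their part in the *Slc25a37* result was not tested. Their summed level had a median of 2.39 CPM in Doxo hearts (highest 339 CPM) and 1.42 CPM in Doxo-NMN hearts (mean 1.37 ± 0.742 CPM, n = 13). In Doxo-NMN hearts *Slc25a37* stood at 19.7 ± 2.08 CPM, higher than in Doxo hearts by 0.175 ± 0.07 on the log2 scale (adjusted p = 0.0282). This difference was not called without Doxo replicate 8 (adjusted p = 0.0574) or in hearts above or below the *Myl4* limit (adjusted p = 0.068 and 0.172).

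The uncoupling-related *Slc25a30* did not pass the test (log2 change 0.23 ± 0.11, adjusted p = 0.0566), while *Slc25a27* rose (0.49 ± 0.10, adjusted p = 9.19e-05). Among carriers with no settled cargo, 3 fell and 2 rose of 7 tested. *Slc25a16* rose from a range of 28.7 to 34.0 CPM in Ctrl hearts (median 30.5) to 31.9 to 55.1 CPM in Doxo hearts (median 45.1), and Doxo replicate 6 was the only Doxo heart inside the Ctrl range. Its log2 fold change was 0.57 ± 0.06 (adjusted p = 1.63e-09), and 0.60 without replicate 6. *Slc25a45* fell from 4.33 ± 0.636 to 2.17 ± 0.890 CPM (−0.99 ± 0.15, adjusted p = 4.10e-07), again with every Doxo heart but replicate 6 below the Ctrl range. *Slc25a34* fell from 208 ± 27.4 to 159 ± 64.8 CPM (−0.38 ± 0.15, adjusted p = 0.0202), which was not called in hearts below the *Myl4* limit alone (−0.41, adjusted p = 0.103).

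**Figure D3:**
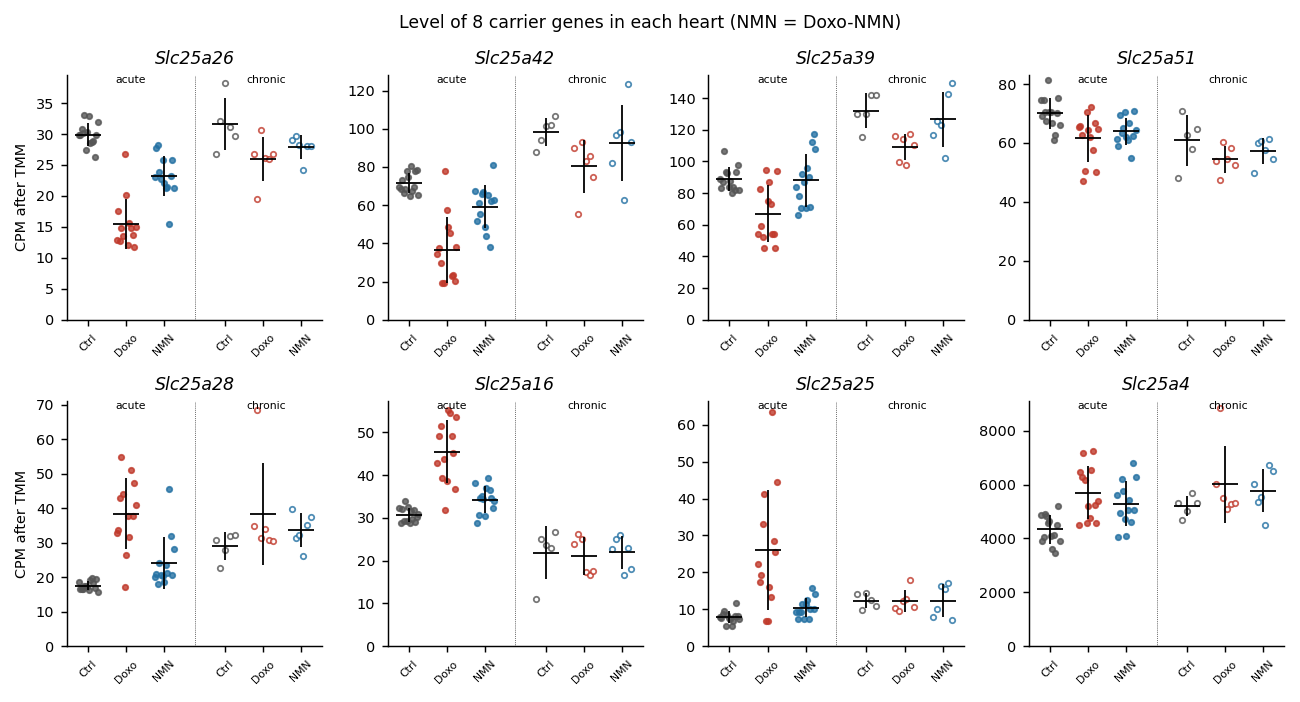
Level of 8 carrier genes in CPM after TMM scaling in each heart (linear axis from 0), with the group mean and 1 SD; filled points are acute hearts and open points chronic hearts. In the acute study the Doxo hearts lie below Ctrl for *Slc25a26* and *Slc25a42* and above it for *Slc25a28* and *Slc25a16*, with 1 Doxo heart, replicate 6, at the Ctrl level in each of these 4.

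The acute Doxo-NMN hearts were compared with the Doxo hearts to ask what NMN changed on top of Doxo, and with the Ctrl hearts to ask what remained. These comparisons share the Doxo and Ctrl hearts with the one above, so their values are set side by side and are not independent of it. The paper that reported these data states that fewer mice survived to day 5 with Doxo alone than with Doxo-NMN. Hearts taken on that day are from survivors, and the part of unequal survival in these differences was not tested. In Doxo-NMN vs. Doxo, 14 of 42 members were higher and 5 lower, beside 25.7% and 27.4% of all genes; with a fold change of at least 1.5, 5 were higher and 3 lower, beside 8.17% and 8.88%. In Doxo-NMN vs. Ctrl, 5 members were lower and 7 higher, beside 11.1% and 15% of all genes, and with a fold change of at least 1.5, none was lower and 2 were higher, beside 3.79% and 3.31%. Within the hearts above and below the *Myl4* limit, which are fewer, 5 and 1 members were called in Doxo-NMN vs. Ctrl. Without Doxo replicate 6, 15 members were higher and 6 lower in Doxo-NMN vs. Doxo. Shares over all genes in these subsets of hearts are not given here.

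Cofactor carriers, which were 10 of the 42 tested members, accounted for 5 of the 14 that were higher in Doxo-NMN than in Doxo hearts. *Slc25a36* was the single cofactor carrier that was lower. *Slc25a42* rose by 0.69 ± 0.16 on the log2 scale (adjusted p = 3.53e-04), with a remaining log2 difference from Ctrl of −0.27 ± 0.15 (adjusted p = 0.184). *Slc25a26* rose by 0.59 ± 0.09 (adjusted p = 4.50e-06) but was still lower than in Ctrl hearts (−0.37 ± 0.09, adjusted p = 0.0026), and 11 of 13 Doxo-NMN hearts were below the lowest Ctrl heart; this difference was −0.25 (adjusted p = 0.169) above and −0.41 (adjusted p = 0.0543) below the *Myl4* limit. *Slc25a39* rose by 0.39 ± 0.11 (adjusted p = 0.00239) to 87.9 ± 16.8 CPM. The NAD+ carrier *Slc25a51* was at 64.0 ± 4.66 CPM in Doxo-NMN hearts and was called neither against Doxo (log2 change 0.06 ± 0.06, adjusted p = 0.420) nor against Ctrl (−0.13 ± 0.06, adjusted p = 0.0757). *Slc25a36* was lower in Doxo-NMN than in Doxo hearts (−0.30 ± 0.08, adjusted p = 0.00147) and than in Ctrl hearts (−0.24 ± 0.08, adjusted p = 0.0187; 0.0594 above and 0.104 below the *Myl4* limit), at 45.9 ± 6.4 CPM.

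The other 4 members that were lower in Doxo-NMN than in Doxo hearts were *Slc25a25*, *Slc25a28*, *Slc25a16* and *Slc25a18*. *Slc25a25* fell by 1.32 on the log2 scale (SE 0.23, adjusted p = 1.40e-05) to 10.4 ± 2.63 CPM, and its difference from Ctrl was not called (0.41 ± 0.22, adjusted p = 0.170). *Slc25a28* fell by 0.67 (SE 0.13, adjusted p = 5.52e-05) but stayed higher than in Ctrl hearts (0.46 ± 0.13, adjusted p = 0.0061), a call that was lost in hearts above (0.23, adjusted p = 0.256) and below the *Myl4* limit (0.52, adjusted p = 0.0951). *Slc25a16* fell by 0.41 (SE 0.06, adjusted p = 5.11e-06) to 34.3 ± 3.11 CPM, with a log2 difference from Ctrl of 0.16 ± 0.06 (adjusted p = 0.0616). The low-level *Slc25a18* fell by 1.46 (SE 0.29, adjusted p = 9.90e-05), and its difference from Ctrl, 0.79 ± 0.30, was just past the threshold (adjusted p = 0.0479) and was lost when any of 24 single hearts was left out and under 6 of 10 other settings.

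The major ADP/ATP carrier did not follow this pattern. *Slc25a4* stood at 5279 ± 836 CPM in Doxo-NMN hearts, was not called against Doxo (−0.11 ± 0.09, adjusted p = 0.279) and was higher than in Ctrl hearts (0.29 ± 0.08, adjusted p = 0.0112), but not within the hearts above (0.26, adjusted p = 0.17) or below the *Myl4* limit (0.19, adjusted p = 0.24). *Slc25a3* was at 1682 ± 227 CPM and was not called against Doxo (0.10 ± 0.07, adjusted p = 0.254). Its log2 difference from Ctrl was 0.19 ± 0.07, at an adjusted p of 0.0499. That call was lost when any of 31 single hearts was left out and under 8 of 11 other settings. *Slc25a5* rose by 0.26 ± 0.09 against Doxo (adjusted p = 0.0107), to 252 ± 33.6 CPM, a call lost above (adjusted p = 0.163) and below the *Myl4* limit (adjusted p = 0.0644). The shuttle carriers *Slc25a13* (0.40 ± 0.11, adjusted p = 0.00249) and *Slc25a11* (0.26 ± 0.09, adjusted p = 0.0219) were also higher than in Doxo hearts, of which *Slc25a13* was lost above (adjusted p = 0.0766) and *Slc25a11* above and below the *Myl4* limit (adjusted p = 0.109 and 0.107), while *Slc25a12* was not called (−0.06 ± 0.06, adjusted p = 0.464) and *Slc25a20* was not called in any acute comparison.

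The members that differed from Ctrl by at least 1.5-fold in Doxo-NMN hearts were *Slc25a18* and *Slc25a31*, and both averaged under 1 CPM in Ctrl and Doxo-NMN hearts. *Slc25a31* encodes ANT4, the ADP/ATP carrier of the germ line, and lay between 0.0940 and 0.475 CPM in Ctrl hearts (median 0.232), between 0 and 0.827 CPM in Doxo hearts (median 0.440) and between 0.211 and 1.03 CPM in Doxo-NMN hearts (median 0.606). It was higher in Doxo-NMN than in Ctrl hearts by 1.23 ± 0.34 on the log2 scale (adjusted p = 0.00662; 0.259 below the *Myl4* limit), and Doxo hearts, 1 of them at 0, were not called against Ctrl (0.65 ± 0.35, adjusted p = 0.0926). The uncoupling-related *Slc25a27* remained higher than in Ctrl hearts (0.40 ± 0.10, adjusted p = 0.00434), and *Slc25a37* (−0.25 ± 0.07, adjusted p = 0.00533) and *Slc25a24* (−0.38 ± 0.10, adjusted p = 0.00561) remained lower. Above the *Myl4* limit *Slc25a24* was at −0.12 (adjusted p = 0.495) and *Slc25a37* at −0.15 (adjusted p = 0.36); below it *Slc25a37* (adjusted p = 0.0696) and *Slc25a27* (adjusted p = 0.103) were not called.

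Several carriers come as pairs for the same cargo, and the log2 ratio of their counts within a heart does not depend on how libraries are scaled. For 8 such pairs the ratio was tested in 6 comparisons by two-sided permutation over hearts (100000 resamples in the acute study, exact in the chronic study). With adjustment over all 48 tests, 18 of these tests had an adjusted p under 0.05. The ANT2 to ANT1 ratio (*Slc25a5*/*Slc25a4*) was −4.12 ± 0.0885 (SD, n = 14) in acute Ctrl hearts, −4.77 ± 0.407 (n = 13) in Doxo hearts and −4.39 ± 0.173 (n = 13) in Doxo-NMN hearts. It differed in Doxo vs. Ctrl (permutation test, difference −0.65 ± 0.12 SE, adjusted p = 3.20e-04), in Doxo-NMN vs. Doxo (0.38 ± 0.12, adjusted p = 0.0117) and between Doxo-NMN and Ctrl hearts (−0.27 ± 0.05, adjusted p = 5.49e-04).

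The mitoferrin 1 to mitoferrin 2 ratio (*Slc25a37*/*Slc25a28*) showed the largest shift among genes expressed above 10 CPM. It was 0.41 ± 0.158 in Ctrl hearts, −1.09 ± 0.614 in Doxo hearts and −0.25 ± 0.502 in Doxo-NMN hearts, so that mitoferrin 2 had the higher count in the mean Doxo heart and mitoferrin 1 in the mean Ctrl heart. The difference was −1.51 ± 0.18 in Doxo vs. Ctrl (permutation test, adjusted p = 3.20e-04). Between Doxo-NMN and Ctrl hearts it was −0.66 ± 0.15 (permutation test, unadjusted p = 2.00e-05, the smallest that these permutations can give, adjusted p = 3.20e-04). The citrin to aralar ratio (*Slc25a13*/*Slc25a12*) was −0.76 ± 0.142 in Ctrl, −1.38 ± 0.341 in Doxo and −0.91 ± 0.215 in Doxo-NMN hearts; it was lower in Doxo vs. Ctrl (−0.62 ± 0.10, permutation test, adjusted p = 3.20e-04) and not called in Doxo-NMN vs. Ctrl (−0.14 ± 0.07, adjusted p = 0.0960). For the glutathione carriers (*Slc25a40*/*Slc25a39*) the ratio rose by 0.58 ± 0.10 in Doxo vs. Ctrl (permutation test, adjusted p = 3.20e-04).

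**Figure D4:**
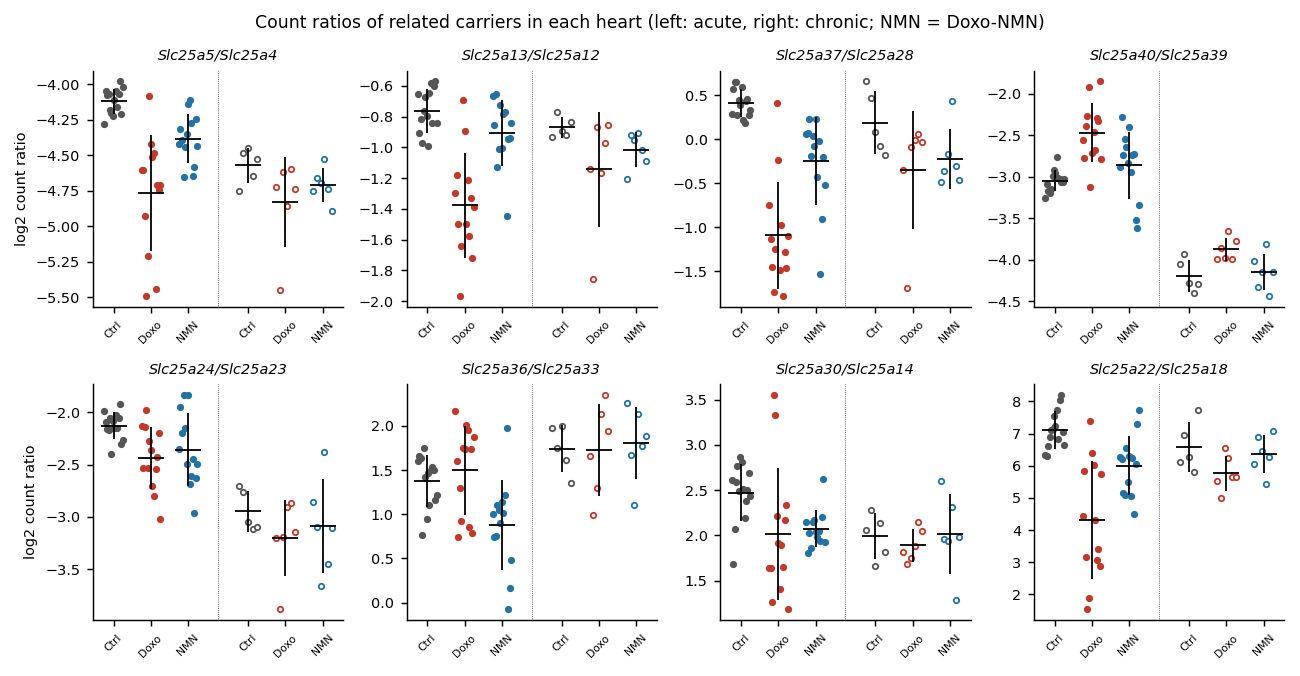
Log2 count ratio of 8 pairs of related carriers in each heart, with the group mean and 1 SD; each panel shows the acute groups on the left (filled) and the chronic groups on the right (open). The acute *Slc25a37*/*Slc25a28* ratio goes from 0.41 in Ctrl to −1.09 in Doxo hearts, and Doxo hearts spread more than Ctrl hearts.

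In the chronic study no carrier was called in any comparison. In Doxo vs. Ctrl 0 of 41 tested members passed, beside 0.00668% of genes that were lower and 0.0535% that were higher; at an unadjusted p under 0.05 there were 4 carriers, beside 7.85% of all genes. In Doxo-NMN vs. Doxo no gene at all passed (0% lower and 0% higher), with 4 carriers and 2.95% of all genes at an unadjusted p under 0.05, and in Doxo-NMN vs. Ctrl 0% of genes were lower and 0.0401% higher, with 0 carriers and 4.73% of all genes at an unadjusted p under 0.05. DESeq2 and limma-voom also called 0 carriers in each chronic comparison. The 4 carriers at an unadjusted p under 0.05 with edgeR in Doxo vs. Ctrl were *Slc25a26*, *Slc25a28*, *Slc25a39* and *Slc25a47*. The last is a liver-enriched member that was named after its value was seen.

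*Slc25a39* stood at 130, 115, 130, 142 and 142 CPM in the 5 chronic Ctrl hearts, between 97.5 and 117 CPM in Doxo hearts (median 112) and between 102 and 150 CPM in Doxo-NMN hearts (median 124). Only 1 Ctrl heart, at 115 CPM, lay inside the Doxo range. The log2 fold change in Doxo vs. Ctrl was −0.27 ± 0.10 (adjusted p = 0.562). *Slc25a26* stood at 26.8, 32.1, 38.3, 31.2 and 29.65 CPM in Ctrl hearts and between 19.5 and 30.7 CPM in Doxo hearts, with overlapping ranges (−0.28 ± 0.11, adjusted p = 0.567). *Slc25a28* stood at 30.9, 22.7, 27.8, 31.9 and 32.2 CPM in Ctrl hearts; Doxo replicate 2 was far above the rest at 68.5 CPM, and the other 5 Doxo hearts lay between 30.6 and 34.8 CPM (0.40 ± 0.18, adjusted p = 0.623). Without that heart the *Slc25a28* change was 0.155 ± 0.11 (adjusted p = 0.999). The coenzyme A carrier *Slc25a42* stood at 87.9, 94.4, 101, 102 and 107 CPM in Ctrl hearts and between 55.5 and 93.2 CPM in Doxo hearts (−0.29 ± 0.14, adjusted p = 0.641); 1 Ctrl heart lay inside the Doxo range.

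Among the chronic ratios, 1 passed the adjusted threshold. The *Slc25a40*/*Slc25a39* ratio was −4.20 ± 0.191 (SD, n = 5) in Ctrl and −3.88 ± 0.137 (n = 6) in Doxo hearts, a difference of 0.32 ± 0.10 (exact permutation test, p = 0.0173, adjusted p = 0.0462). It was lost when any of 10 of the 11 Ctrl and Doxo hearts was left out, with adjusted p up to 0.0914, and kept only without Ctrl replicate 2.

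The acute and chronic Doxo effects were compared directly by testing their difference in 1 fit over Ctrl and Doxo hearts of both studies. The studies also differed in age, dosing, day, sequencing site and depth, and these cannot be told apart. Of 44 tested members, 2 had a lower and 4 a higher acute than chronic effect, beside 8.33% and 11% of all 14965 genes. The difference of log2 fold changes was 1.74 ± 0.42 for *Slc25a25* (adjusted p = 0.00685), −0.67 ± 0.17 for *Slc25a26* (adjusted p = 0.00804), 0.61 ± 0.18 for *Slc25a16* (adjusted p = 0.0164), 0.72 ± 0.23 for *Slc25a28* (adjusted p = 0.0253) and 0.80 ± 0.24 for *Slc25a14*, an uncoupling-related carrier at 1.80 ± 0.388 CPM in acute Ctrl hearts (adjusted p = 0.0218). *Slc25a14* was named after its value was seen. The count of 6 rose to 11 without acute Doxo replicate 6 and to 10 without chronic Doxo replicate 2, and the *Slc25a28* call was lost without chronic Doxo replicate 3 or 6 (adjusted p up to 0.0520), and the *Slc25a14* call without chronic Ctrl replicate 3 (0.68, adjusted p = 0.0585).

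**Figure D5:**
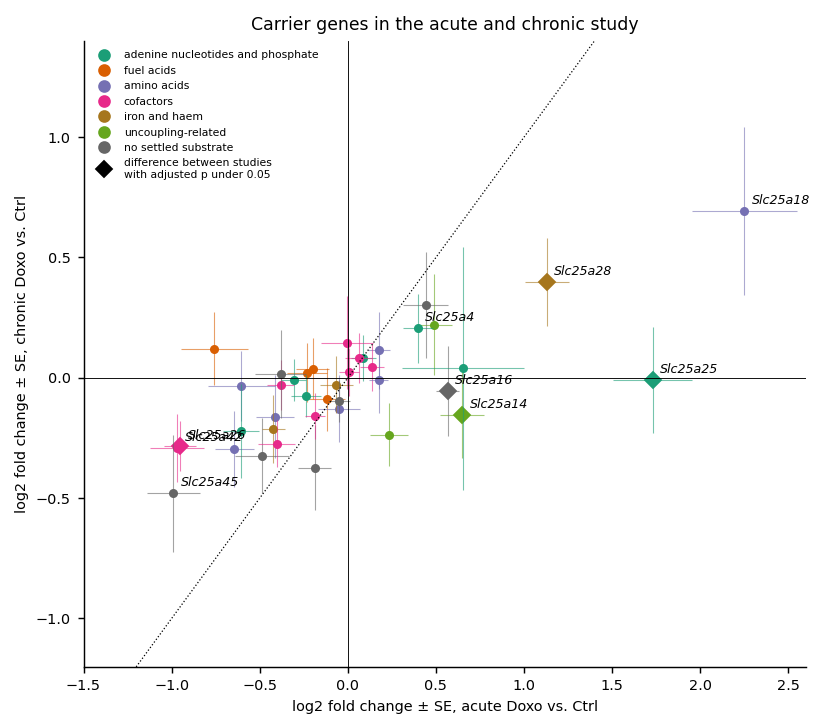
Log2 fold change in Doxo vs. Ctrl in the acute study (horizontal) against the chronic study (vertical) for 40 of the 41 members tested in both, with bars for 1 SE; diamonds mark 5 members whose effects differed at an adjusted p under 0.05, and the dotted line is equality. Chronic values lie between −0.48 and 0.69, acute values between −0.99 and 2.25.

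Genes that work beside the carriers were listed as well. Of 15 tested components of the route by which carriers are imported and inserted into the inner membrane, 7 were lower and 2 higher in acute Doxo vs. Ctrl, with a median log2 fold change of −0.12, beside 33.3% and 34.8% of all genes, which holds for the lists after it too. *Timm22*, the channel of the carrier insertion complex, fell from 24.6 ± 3.10 to 12.7 ± 4.65 CPM (−0.95 ± 0.12, adjusted p = 1.22e-08) and was higher again with NMN (0.56 ± 0.12 against Doxo, adjusted p = 2.17e-04). *Tomm20*, an import receptor of the outer membrane, rose from 63.1 ± 5.63 to 108 ± 25.5 CPM (0.78 ± 0.09, adjusted p = 6.47e-09). *Tomm5*, a small subunit of the outer membrane pore, fell (−0.87 ± 0.15, adjusted p = 4.65e-06). Of 21 tested other mitochondrial transporters, 9 were lower and 9 higher, with a median of −0.05, and those changed at least 1.5-fold were *Sfxn5* (0.94 ± 0.10, adjusted p = 6.36e-10) and *Sfxn2* (0.87 ± 0.13) of the sideroflexin family and *Micu3* (0.605 ± 0.08), a regulator of the calcium uniporter, which rose, and *Mcub* (−0.89 ± 0.17), an inhibitory uniporter subunit, *Sfxn3* (−0.66 ± 0.16) and *Abcb10* (−0.60 ± 0.08), which fell. Among 10 shuttle enzymes 2 fell and 2 rose, including *Gpd1* of the glycerol phosphate shuttle (0.65 ± 0.12, adjusted p = 1.59e-05) and *Cpt2*, the enzyme that rebuilds acyl-CoA from the acylcarnitine brought in by *Slc25a20* (−0.63 ± 0.15, adjusted p = 2.77e-04). Of the 4 tested SLC25 members with other symbols, *Ucp3*, an uncoupling protein of muscle, fell (−1.11 ± 0.50, adjusted p = 0.0470).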

How the data were processed

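Poly(A) libraries of 57 heart samples were sequenced single-end on a NovaSeq instrument at a different site for each study. Per the submitters' processing notes, reads were aligned with STAR 2.7.3a to mm10 and counted with featureCounts 2.0.0; the strand setting is not given in the sources used here. The deposited tables hold raw counts per gene; among acute counts of 1 to 20, a median of 73.6% were even (40.3% in the chronic study), which was not explained by the sources used here. Counts were scaled by TMM, filtered with filterByExpr and tested with the quasi-likelihood F-test of edgeR 4.0.16 (R 4.3.3), with 3 groups per study in 1 fit and Benjamini-Hochberg adjustment over all genes. CPM are scaled by TMM; levels per length use exons of GENCODE vM21. Alternatives included DESeq2 1.42.0, limma 3.58.1, other filters and scalings, counts divided by 2, an atrial covariate, hearts split at 100 CPM of *Myl4* and leaving out single hearts. Each heart was left out in the fits within a study. For the ratios and the difference between studies, only chronic hearts and acute Doxo replicate 6 were left out. The tests were checked on simulated data. Ratios used an offset of 0.5 counts. Named members were the 3 with the smallest adjusted p per direction in each acute comparison, those at least 1.5-fold from Ctrl in Doxo-NMN hearts, the 5 highest per length, and 20 chosen by role; *Slc25a1*, *Slc25a14*, *Slc25a23*, *Slc25a32* and *Slc25a47* were named after their values were seen. One member is not reported here by name. Genes of other lists were named if called and at least 1.5-fold changed in acute Doxo hearts. The members and lists were chosen with earlier results of these data known. The labels do not name the animal behind each sample, so p-values measure the spread between these samples. The number of hearts and depth set the precision, and limits at 3 counts cover counting error only.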

Additional observations from a re-analysis of the deposited data

Results flagged for a closer look

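The Doxo effect differed between the acute and the chronic study for 5 named carriers by a test of the difference itself (edgeR, adjusted p between 0.00685 and 0.0253). In all, 6 members were called. Over all 14965 genes, 8.33% had a lower and 11% a higher acute than chronic effect, and the members' share was above neither value. The acute minus chronic log2 effect was 1.74 for *Slc25a25*, 0.799 for *Slc25a14*, 0.721 for *Slc25a28*, 0.614 for *Slc25a16* and −0.671 for *Slc25a26*; single chronic hearts ended the calls of *Slc25a14* (adjusted p = 0.0585) and *Slc25a28* (up to 0.0520). Age, dosing, day and sequencing site differed together between the studies and cannot be told apart.

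In 5 of 33 chronic groups checked over 11 genes, 1 heart stood apart from the others by Dixon's test. Most of these genes were chosen by their results in these same data, so the count cannot be set against a rate expected by chance. *Slc25a28* was at 68.52 CPM in chronic Doxo replicate 2, with the other 5 hearts between 30.62 and 34.81 CPM. The same heart had *Slc25a4* at 8842 CPM, with the others between 5084 and 6006 CPM. *Slc25a25* was at 17.96 CPM in chronic Doxo replicate 5, with the others between 9.592 and 12.65 CPM. *Slc25a16* was at 10.95 CPM in chronic Ctrl replicate 1, with the others between 23.03 and 26.71 CPM, and *Slc25a26* was at 24.26 CPM in chronic Doxo-NMN replicate 4, with the others between 28.12 and 29.64 CPM.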

How the results depend on the processing

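No result reversed. Counting only calls of at least 1.5-fold gave 12 acute members in Doxo vs. Ctrl, 8 in Doxo-NMN vs. Doxo and 2 in Doxo-NMN vs. Ctrl. The 12 carriers called in Doxo-NMN vs. Ctrl became 20 with limma-voom, 20 with the compared groups fitted alone, 5 in hearts above the *Myl4* limit and 1 in hearts below it. In Doxo vs. Ctrl 31 were called above that limit and 19 below it. Shares over all genes under these settings are not given here, so these counts have no background beside them. Leaving out single hearts gave 27 to 30 calls in Doxo vs. Ctrl, 18 to 21 in Doxo-NMN vs. Doxo and 9 to 14 in Doxo-NMN vs. Ctrl. It gave 5 to 11 for the difference between studies, 0 in each chronic comparison and 17 to 21 of the 48 ratio tests. For the ratios and the difference between studies, Doxo replicate 6 was the only acute heart left out, so their dependence on other acute hearts was not tested. The fold changes of named members that were called in the main fits kept their call in 2117 alternatives and lost it in 100. Single hearts left out, some from a group not compared, made up 1682 of those kept and 58 of those lost. Hearts above the *Myl4* limit kept 28 calls and lost 14, and hearts below it kept 26 and lost 16. Of same-numbered hearts from different groups, 18 of 39 acute and 4 of 16 chronic pairs correlated above 0.1, with median correlations of 0.0605 and 0.0223. Only 4 of 40 and 3 of 17 hearts correlated best with their own number. No rate for differently numbered pairs is given here, so this check does not settle whether a number marks a shared block. Such hearts were not treated as pairs. With the replicate block, 27, 18 and 10 acute members were called in the order above, and 0 in each chronic comparison. The cause of these shifts was not tested. Chronic tests rested on 5 or 6 hearts a group, and genes under 1 CPM rest on few counts.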
